A study of Rattus norvegicus with 3 samples.

Results

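The genes examined here are 10 of those named most often by Seh1 peaks of oligodendrocyte progenitor cells (OPC), as counted in an annotated peak table: Shox2, Cdca7, Veph1, Agpat4, Rasd2, Tbx3, Mn1, Etaa1, Bcl11a and Cyp26b1. They were selected on their number of peaks, 7 or more each, so those counts describe the choice and are not a result. Together they hold 87 of 9084 annotated OPC peaks. Of 5796 genes named in the table, 21 have 7 or more peaks, 0.362%, and the 11 not followed here are Mir6322, Mir153 and Copb1 with 8 each and Ust, Zfp423, RGD1562310, LOC498592, Dok6, Stt3b, RGD1307595 and Vrk1 with 7. Just outside the limit stand 30 genes with 6 peaks, among them Nfasc, Ntrk2, Igf1r, Bmp4 and Omg, while 3795 genes have 1 peak.

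Seh1 is a subunit of the scaffold of the nuclear pore, the channel between nucleus and cytoplasm, and some pore proteins are known to touch chromatin. In this study the protein was immunoprecipitated with its DNA (ChIP-seq) from rat OPC and from immature oligodendrocytes (iOL), and the series links it by name to Olig2 and Brd7, a lineage transcription factor and a bromodomain protein. The peak caller's annotation gives each peak to the gene whose transcription start site (TSS) is nearest in a straight line. A gene with much empty genome around it can therefore collect peaks that lie far away or inside another gene.

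Cells of both stages were cultured from the forebrain of Sprague Dawley rats taken 1 to 2 days after birth. OPC were grown with PDGF-AA, CNTF, bFGF and NT3, and iOL were made by withdrawing PDGF-AA, bFGF and NT3 and adding the thyroid hormone T3 at 60 nM for 1 day. There was 1 Seh1 library per stage and 1 IgG library, of iOL only, and the number of animals behind a library is not stated in the labels. On build rn6, 9117 intervals of 205 bp were called in OPC and 6704 of 209 bp in iOL. Read depth is unknown. With a single library per stage there is no replicate error and no test between stages, and every comparison below sets values of one peak list beside another. Intervals on shares and rates cover counting error only. The labelled cell types could not be checked against marker genes, because peak lists hold no expression values.

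The genes Shox2, Tbx3, Bcl11a and Mn1 code for regulators of transcription that are known from embryonic patterning and blood. Cdca7 and Etaa1 act on chromatin and on replicating DNA. Rasd2, Veph1, Agpat4 and Cyp26b1 code for proteins of signalling and metabolism, and Rasd2 is known as a thyroid hormone responsive gene of the striatum.

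Peaks stood within 1 kb of the TSS at 4 of the genes, Rasd2, Etaa1, Cyp26b1 and Cdca7. The 250 bases upstream of these 4 starts are shown because they are the promoters that the peaks flank. They were copied from a table of RefSeq promoter sequences for build GRCr8, in which 7 of the 10 genes were matched (not Shox2, Tbx3 and Mn1), and are written 5' to 3' on the gene's strand: plus on chromosome 19 for Rasd2 and chromosome 3 for Cdca7, minus on chromosome 14 for Etaa1 and chromosome 4 for Cyp26b1. Capitals mark CANNTG, the E-box that Olig2 and its relatives are known to bind, which reads the same on both strands.

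Rasd2: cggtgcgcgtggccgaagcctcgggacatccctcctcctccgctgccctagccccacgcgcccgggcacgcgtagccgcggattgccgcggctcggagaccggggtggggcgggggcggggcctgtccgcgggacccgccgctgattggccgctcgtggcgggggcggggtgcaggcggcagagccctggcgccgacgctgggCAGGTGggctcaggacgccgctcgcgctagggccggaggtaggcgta

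Etaa1: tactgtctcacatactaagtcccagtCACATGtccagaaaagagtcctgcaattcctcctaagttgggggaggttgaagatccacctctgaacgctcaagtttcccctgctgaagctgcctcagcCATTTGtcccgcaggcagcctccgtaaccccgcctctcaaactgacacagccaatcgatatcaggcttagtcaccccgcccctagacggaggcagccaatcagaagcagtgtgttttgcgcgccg

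Cdca7: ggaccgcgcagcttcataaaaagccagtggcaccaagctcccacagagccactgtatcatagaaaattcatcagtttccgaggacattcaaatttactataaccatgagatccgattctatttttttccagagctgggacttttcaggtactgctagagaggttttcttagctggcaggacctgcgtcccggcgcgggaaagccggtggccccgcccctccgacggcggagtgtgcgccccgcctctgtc

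Cyp26b1: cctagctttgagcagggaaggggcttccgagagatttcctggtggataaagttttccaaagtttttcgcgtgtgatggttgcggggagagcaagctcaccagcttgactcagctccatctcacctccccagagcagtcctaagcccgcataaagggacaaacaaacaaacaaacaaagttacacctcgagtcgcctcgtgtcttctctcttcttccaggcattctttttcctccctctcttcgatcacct

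The Rasd2 stretch holds 1 E-box and 37 CG dinucleotides, with 78.4% G and C, against a median of 5 CG dinucleotides and 51.2% over 33469 promoters of this length. Etaa1 has 2 E-boxes, and Cdca7 and Cyp26b1 have 0. An E-box was present in 4 of the 7 promoters of these genes and in 65.5% of all. The form CAGCTG was found in 0 of the 7 and in 12.0% of all. A match is a run of letters and not a measured site, and a promoter without one says nothing of the factor. Peak distances were measured on rn6, so the peaks themselves could not be laid on these bases.

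Rasd2, a small GTPase also called Rhes, had the tightest group of peaks. Its 8 peaks covered 63.7 kb of chromosome 19 (14644210 to 14707923), and 5 of them lay within 11.0 kb around the TSS, at -8886, -5292, -396, 146 and 1880 bp. The promoter peak (14652700 to 14652904, score 9.58) and the peak in the 5' UTR of exon 1 of 3 (14653242 to 14653446, score 7.02) had centres 542 bp apart with 337 bp between their edges, which was the closest pair of any of the 10 genes. The caller's score is the authors' own value per peak and has no definition in the file. The other 6 Rasd2 peaks all carried a repeat name: MIRb and ID_Rn2 upstream, a GGT repeat in intron 1 of 2, RNERVK8-int at 26.2 kb, and a pair in RMER1B at 53.9 and 54.6 kb with centres 691 bp apart. The iOL peak nearest to any of the 8 was 218 kb away.

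Cyp26b1 codes for the enzyme that breaks down retinoic acid. Its nearest OPC peak lay in intron 1 of 5 at 602 bp (chromosome 4, 116277911 to 116278115, score 7.66, the gene's highest). An iOL peak lay on the other side of the same TSS at -266 bp (116278777 to 116278985), with centres 868 bp apart, so both stages had a peak at this start site but the intervals did not overlap. This was the smallest distance between an OPC peak and an iOL peak at any of the 10 genes. The 6 other OPC peaks stood at -62.9, -49.5, -35.0, -11.3, 83.7 and 202 kb, with scores from 5.75 to 7.02. The outermost upstream pair lay in intron 21 of 22 of Exoc6b, the neighbouring gene for an exocyst subunit, in which the table has 4 peaks in all.

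Cdca7, a zinc finger protein that partners the chromatin remodeller HELLS, had 11 peaks over 476 kb of chromosome 3 (58953255 to 59429280), 3 upstream and 8 downstream. They stood at -200, -44.3, -27.4, 0.632, 12.5, 23.3, 81.3, 141, 154, 196 and 276 kb from the TSS, and the one at 0.632 kb lay in intron 1 of 8. Only the peak at 154 kb had a repeat name, the SINE B3, and the peak at -200 kb (score 8.30, the highest) lay in a CpG island. Scores were even, from 6.38 to 8.30. The flanking RefSeq genes Map3k20 and Sp3 had no peak of their own in the table. One iOL peak, at -84.5 kb, fell between the first and the last OPC peak.

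Etaa1, an activator of the checkpoint kinase ATR at stalled replication forks, had 8 peaks over 913 kb of chromosome 14. One lay 180 bp from the TSS in exon 1 of 1 (102293395 to 102293599, score 9.58) and one in a CpG island at -8.03 kb (score 7.02). The others stood at -104, 122, 132, 180, 598 and 809 kb, and 4 of the 8 had a repeat name. The highest score, 10.2, belonged to the peak at 132 kb (102161463 to 102161667). The iOL peak nearest to any Etaa1 peak was 776 kb away, and the 4 iOL peaks of its surroundings all lay upstream, from -879 to -1384 kb. In the RefSeq order of GRCr8 the homeobox gene Meis1 follows Etaa1 on that side, and the table names Meis1 for no peak.

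**Figure D1:**
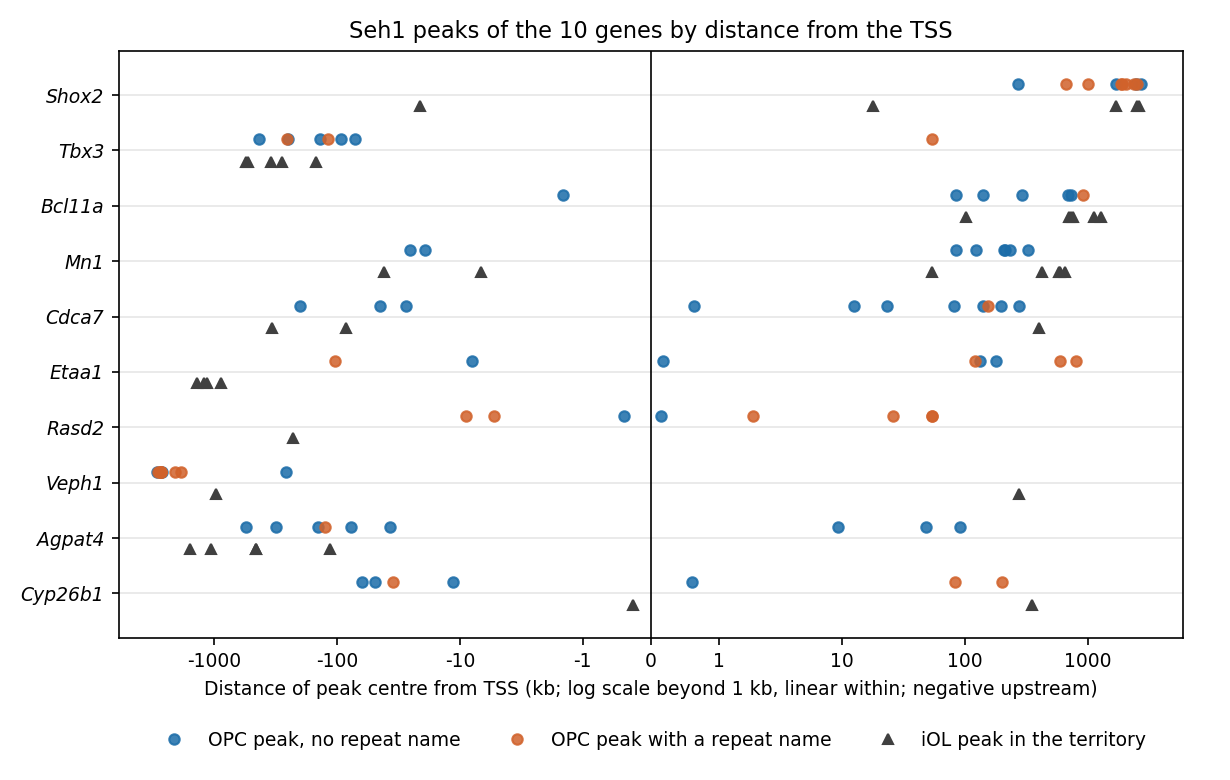
Distance of each peak centre from the TSS in kb, upstream negative, on an axis that is linear within 1 kb and logarithmic beyond; circles are the 87 OPC peaks, coloured by whether the detailed annotation names a repeat, and triangles the 40 iOL peaks in the same territories. Rasd2, Etaa1, Cdca7 and Cyp26b1 have circles within 1 kb of the TSS, while all Shox2 circles lie 271 kb or more downstream and all Veph1 circles 260 kb or more upstream.

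Among the regulators of transcription, Bcl11a had the peak nearest to a TSS. Bcl11a codes for a zinc finger protein of the BAF remodelling complex, known as a repressor of fetal globin. Its 7 peaks lay at -1.44, 85.3, 142, 294, 691, 730 and 919 kb, the first in a CpG island (chromosome 14, 108825401 to 108825605, score 7.66) and the next in the last exon, 4 of 4 (108912166 to 108912370, score 8.30). The highest score, 8.94, was that of the peak at 142 kb (108968600 to 108968804). Only the farthest had a repeat name, RatSatRep2. 4 iOL peaks fell among the Bcl11a peaks, at 103, 703, 739 and 765 kb, and 4 of the 7 OPC peaks had an iOL peak within 50 kb.

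Mn1, a coregulator of transcription named for a meningioma and known in leukaemia, had 8 intergenic peaks over 351 kb of chromosome 12, and 0 of them had a repeat name. They stood at -25.7, -19.4, 84.8, 123, 209, 212, 234 and 326 kb with scores from 7.02 to 9.58. The pair at 209 and 212 kb (51041071 to 51041275 and 51038384 to 51038588) had centres 2687 bp apart. iOL peaks lay at -6.67, -41.1 and 53.9 kb from the Mn1 TSS, and 3 of the 8 OPC peaks had one within 50 kb, the closest at 12.7 kb.

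Tbx3, a T-box repressor of limb and heart development, had 8 intergenic peaks over 487 kb of the same chromosome, 7 of them upstream from -71.8 to -432 kb and 1 at 54.5 kb. LTR repeats were named at 3, RMER17C, RMER19B and ORR1D2. Scores ran from 6.38 to 8.30, and the highest was the peak at -138 kb (42630410 to 42630614), which was also the Tbx3 peak closest to an iOL peak, at 11.5 kb. On either side of this stretch the next peaks belonged to Tbx5, with 5 peaks in the table, and RGD1562310, with 7.

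Shox2, a homeobox gene of limb and sinus node development, and Veph1, which codes for a PH domain protein of the ventricular zone, border the same stretch of chromosome 2. Their TSS stood 5.97 Mb apart in rn6, and all 21 of their peaks lay between them: the 11 of Shox2 from 271 to 2721 kb downstream of its TSS and the 10 of Veph1 from 260 to 2904 kb upstream of its own. In the RefSeq gene order of GRCr8, Ptx3 lies within Veph1 and no protein-coding gene starts between the end of Veph1 and Shox2. RefSeq places Veph1 and Shox2 closer together in GRCr8 than they are in rn6, so their peak distances, territories and rates below hold for rn6 alone. In both genes 7 peaks had a repeat name.

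In Veph1, 4 peaks lay in the satellite repeat 91ES8_RN, and they are the only 4 peaks of the table with that name. They covered 48.8 kb (160885462 to 160934252), with centres 2403, 2633 and 43550 bp apart in order, and had scores of 27.5, 17.2, 14.0 and 17.9. The other 6 Veph1 peaks scored 6.38 to 8.30. The iOL peak nearest to the satellite peaks was 590 kb away. Shox2 had the 3 other scores above 10 outside Etaa1: 13.4 in a 4.5SRNA repeat at 999 kb (163127444 to 163127648), 12.8 without a repeat name at 2478 kb and 10.9 in the LTR repeat RLTR20B1 at 2509 kb. Its peak at 1712 kb (162414413 to 162414617, score 8.30) was 1.12 kb from an iOL peak.

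Agpat4 codes for an acyltransferase that makes phosphatidic acid. Of its 9 peaks over 638 kb of chromosome 1, 3 lay in its own introns, at 9.26, 48.0 and 91.1 kb in introns 1, 2 and 3 of 8, and 1 between genes at -37.1 kb. The remaining 5 lay upstream from -76.4 to -546 kb. Scores ran from 6.38 to 7.66, the lowest maximum of the 10 genes together with Cyp26b1.

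Repeat names, shown in the table by a vertical bar in the detailed annotation, were given to 33 of the 87 peaks, 37.9% (95% exact binomial interval 27.7 to 49.0%), against 33.2% of all annotated OPC peaks. The label is used only between genes and in introns, where the shares were 39.8% of 83 and 38.6% of 7828. Members differed among themselves from 0 of 8 in Mn1 and 1 of 11 in Cdca7 to 6 of 8 in Rasd2 and 7 of 10 in Veph1. By class, the 33 were 10 LTR, 6 LINE, 5 SINE, 4 satellite, 4 of the class Other (RMER1A and RMER1B), 2 simple repeats, 1 RatSatRep2 and 1 4.5SRNA. As shares of the 87 and of all annotated peaks, LTR made up 11.5 and 7.78%, LINE 6.90 and 9.93% and SINE 5.75 and 5.60%. Satellites made up 4.60 and 0.253%, Other 4.60 and 0.936% and simple repeats 2.30 and 3.80%. The class of RatSatRep2 made up 1.15 and 3.08%, and that of 4.5SRNA 1.15 and 0.429%. The 4 satellite peaks are among 23 in the whole table. Peaks with and without a repeat name had median scores of 7.66 and 7.02 and median distances to the TSS of 598 and 127 kb. Veph1 and Shox2 carried most of that difference, since without them the medians were 104 kb over 19 peaks and 85.3 kb over 47. Of peaks with a repeat name, 24 of 33 lay 100 kb or more from the TSS, and of those without, 28 of 54. Leaving out both genes, these counts were 10 of 19 and 21 of 47. CpG islands, which carry no bar, held 4 peaks, 4.60% against 5.37% of all, 1 each at Bcl11a, Cdca7, Etaa1 and Veph1.

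The peaks lay far from start sites. The median distance was 142 kb for the 87 peaks, 88.2 kb without Veph1 and Shox2, and 34.8 kb for all annotated peaks. At 100 kb or more stood 52 of 87, 59.8% (exact binomial interval 48.7 to 70.1%), against 26.6% of all. Within 1 kb stood 5, 5.75% (1.89 to 12.9%), against 9.47%. Peaks between genes made up 80.5% (70.6 to 88.2%) of these peaks and 56.7% of all. Distances of this kind go with the number of peaks in the table at large: the median was 76.9 kb over 728 genes with 3 to 6 peaks and 313 kb over the 11 other genes with 7 or more. Because a gene with a wide surrounding can hold both more and farther peaks, these values are tied to the rule and were not tested.

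Neighbouring peaks of one member were a median of 48.2 kb apart over 77 gaps, against 131 kb over 9060 gaps between neighbouring annotated peaks, a difference the rule itself favours. Medians ran from 3.59 kb in Rasd2 and 19.1 kb in Cyp26b1 to 119 kb in Bcl11a and 184 kb in Shox2. Another OPC peak lay within 10 kb of 20 of the 87, 23.0%, against 11.7% of all annotated peaks. This share did not follow the number of peaks per gene. It was 19.7% in genes with 3 to 6 peaks but 5.00%, 4 of 80, in the 11 other genes with 7 or more.

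To set the counts against the room each gene has, a territory was drawn from the nearest peak of another gene on one side to that on the other. This is an upper limit of the stretch in which the member has the nearest TSS. Territories ranged from 0.317 Mb for Rasd2 to 3.53 Mb for Shox2 and 3.69 Mb for Veph1, and no peak of another gene lay among the peaks of a member. OPC peaks per Mb of territory were 25.2 in Rasd2, 10.6 in Mn1, 8.10 in Cyp26b1, 7.90 in Cdca7, 7.51 in Tbx3, 5.24 in Agpat4 and 4.60 in Bcl11a. Shox2 with 3.12, Etaa1 with 2.75 and Veph1 with 2.71 lay below the rate over all chromosomes, 3.27 peaks per Mb. Because a territory is an upper limit, each of these OPC rates is a lower limit, and the genes are not shown to be poor in peaks. The territories of Shox2 and Veph1 also overlap, since each ends at the first peak of the other gene. The 10 territories together covered 17.4 Mb with 4.99 OPC peaks per Mb, and 6.26 without Veph1 and Shox2. The rule fixed these counts, so they carry no interval here.

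**Figure D2:**
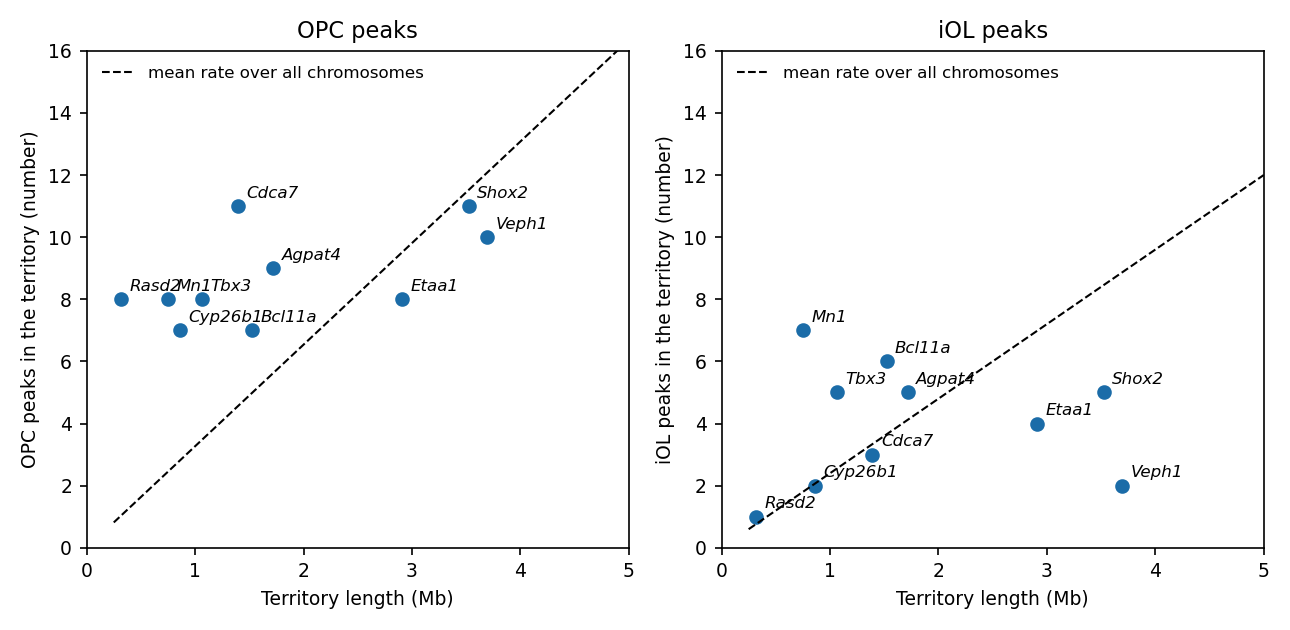
Number of OPC peaks (left) and iOL peaks (right) in the territory of each gene against territory length in Mb; the dashed line is the mean rate over all chromosomes, 3.27 OPC and 2.40 iOL peaks per Mb. In OPC 7 genes lie above the line and Shox2, Etaa1 and Veph1 below it, while in iOL Mn1 stands farthest above and Veph1 farthest below. Territory lengths are upper limits, so OPC rates read from the points are lower limits.

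The iOL list, which had no part in the choice of genes, held 40 peaks in the same territories. That is 2.30 peaks per Mb (exact Poisson interval 1.64 to 3.13), against 2.40 over all chromosomes, and 3.13 (2.15 to 4.40) without Veph1 and Shox2. Between the first and the last OPC peak of each gene the iOL rate was 1.96 per Mb, from 18 peaks. Mn1 had the highest rate, 9.30 per Mb from 7 iOL peaks (3.74 to 19.2). Those at 423, 581, 599 and 659 kb from its TSS lay beyond its OPC peaks, and 2 of the 7 lay among them. Veph1 had the lowest, 0.541 per Mb from 2 (0.0656 to 1.96). Rasd2 had 1 iOL peak, 227 kb upstream of its TSS, and Cyp26b1 had 2. The order of the genes by iOL rate therefore differed in part from that by OPC rate, in which Rasd2 stood first. Shox2, Etaa1 and Veph1 were lowest in both, with 1.42, 1.38 and 0.541 iOL peaks per Mb. Both rates divide by the same territory length, and counts of 1 to 7 iOL peaks per gene leave the iOL intervals wide.

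Within 50 kb of an iOL peak stood 22 of the 87 OPC peaks, 25.3% (exact binomial interval 16.6 to 35.7%), against 34.8% of all annotated OPC peaks. The share was 26.2% (17.0 to 37.3%) in the 11 other genes with 7 or more peaks, so a low share is not particular to these 10. It was 34.5% in genes with 3 to 6 peaks. Without Veph1 and Shox2 it was 28.8% (18.3 to 41.3%), from 19 of 66. The 22 peaks belonged to 7 genes: 4 each to Tbx3, Bcl11a and Cyp26b1, 3 each to Shox2, Mn1 and Agpat4, and 1 to Cdca7. One iOL peak can be counted for several OPC peaks, and the 4 of Cyp26b1 were all near the same iOL peak, at -266 bp. Etaa1, Rasd2 and Veph1 had 0, with nearest iOL peaks at 776, 218 and 464 kb. None of the 87 overlapped an iOL peak, against 1.73% of all annotated peaks. Taken as at most 3 peaks, a count of 0 allows a share of up to 3.45%, and the exact binomial interval reaches 4.15%. Within 10 kb there were 3, the peaks at Cyp26b1 and Shox2 named above and a Bcl11a peak at 730 kb whose centre was 8.54 kb from an iOL peak, 3.45% against 10.0% of all. The interval of that share, 0.717 to 9.75%, lies just under the value for all peaks, but peaks of 1 gene share a neighbourhood and are not independent, and no test was made. Within 100 kb the shares were 40.2% (29.9 to 51.3%) and 53.4%, and within 250 kb 71.3% (60.6 to 80.5%) and 79.1%.

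**Figure D3:**
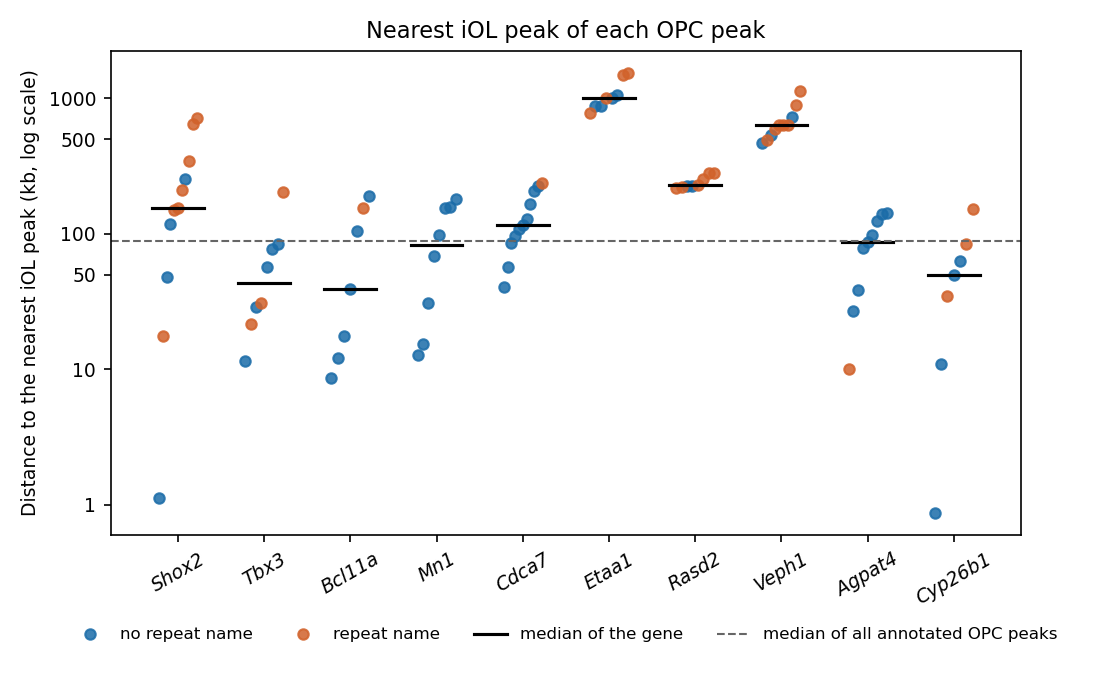
Distance in kb, on a log scale, from each OPC peak to the nearest iOL peak, by gene; bars are medians per gene and the dashed line is the median of all annotated OPC peaks, 88.5 kb. All peaks of Etaa1, Rasd2 and Veph1 lie at 218 kb or more, and single peaks of Cyp26b1 and Shox2 lie near 1 kb.

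The caller's scores had the same median inside and outside these genes. It was 7.66 for the 87 peaks and for all annotated peaks, with neighbouring score values 0.63 to 0.64 apart below 10. Without Veph1 and Shox2 the median was lower, 7.02 over 66 peaks. The quartiles of those 66 were 6.38 and 7.66, against 7.02 and 8.30 for all annotated peaks. Medians per gene ran from 6.38 in Cyp26b1 to 8.30 in Shox2. A score of 10 or more was found in 8 of 87 peaks, 9.20%, against 5.52% of all, and 7 of those 8 were Veph1 or Shox2 peaks, so that 1 of 66 remained without these genes. The focus ratio, a fraction the caller reports per peak, had medians of 0.765 in these peaks and 0.778 in all.

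**Figure D4:**
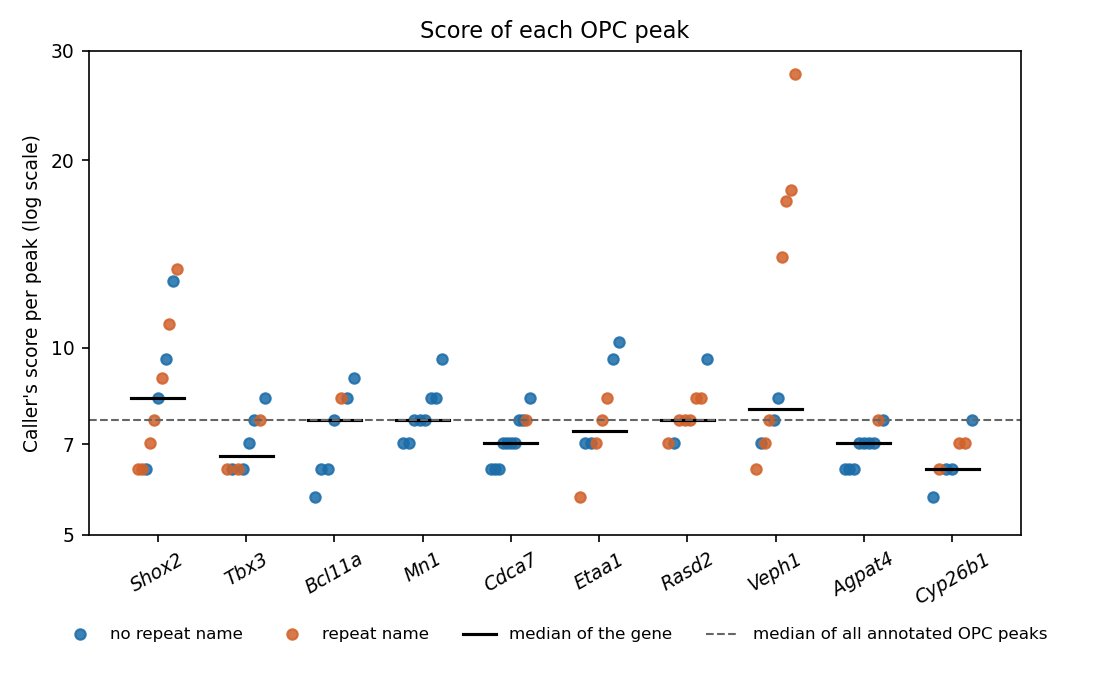
Caller's score of each OPC peak on a log scale, by gene and by whether a repeat is named; bars are medians per gene and the dashed line the median of all annotated OPC peaks, 7.66. The 4 satellite peaks of Veph1 between 14.0 and 27.5 stand above every peak of the other genes.

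Of 14 relatives from the same families, 7 had a peak and 7 had none, while 24.2% of protein-coding RefSeq genes had 1 or more. The most was 5, and since the rule's limit of 7 is met by few genes, a lower count in relatives says nothing particular about them. Bcl11b, the paralog of Bcl11a, had 5, the nearest at 15.0 kb, and Tbx5, which lies next to Tbx3, had 5, the nearest at -53.8 kb. Prrx1 had 3 with the nearest at -2.08 kb, Agpat3 had 3, Agpat5 and Tbx2 had 2 each and Tbx4 had 1. No peak named Prrx2, Cdca7l, Agpat1, Agpat2, Rasd1, Cyp26a1 or Cyp26c1, so the other enzymes of retinoic acid breakdown had none. The room around these relatives was not measured.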

How the data were processed

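The deposited data are 2 peak lists and 1 annotated table. Per the labels and the submitters' processing notes, Bowtie2 and HOMER were used, without versions, with builds rn6 and hg18; peak thresholds and the handling of multiply mapping reads, which could move peaks in repeats, are not stated in them. The table is recorded under iOL, but per the file headers HOMER's annotatePeaks.pl made it on rn6 from a peak file whose name holds OPC Seh1 and iOL IgG. All 9084 of its intervals are found in the OPC list and 0 in that of iOL. Its score and its focus ratio, a fraction, are the authors' deposited values per peak. The iOL IgG library was not analysed here.

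Rows were matched by gene name. Each member's rows used 1 transcript and gave the same TSS to the base. Distances are between peak centres; overlap means 1 bp or more. Chromosome lengths were taken as the largest peak end. Shares have exact binomial (Clopper-Pearson) and rates exact Poisson 95% intervals. No test was made. Members, gene families and lists were chosen with earlier results of these data known, and named peaks are each member's highest-scoring, its nearest to the TSS and its closest pair, with further peaks named after their values were seen. Distance and overlap code was tested on 2000 simulated peaks. Tools were Python 3.11.15, pandas 2.3.3, numpy 2.4.6 and scipy 1.17.1. Some results are not reported here because they need items withheld for evaluation.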

Additional observations from a re-analysis of the deposited data

How the results depend on the processing

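Restricting the 87 peaks to those at or above the median score left 44, dropping those with a repeat name left 54, and keeping those within 100 kb of the TSS left 35. Only 2, 3 and 1 of the 10 genes then still had 7 or more. Within 100 kb, 25.7% had a repeat name. Dropping peaks with a repeat name gave 3.10 OPC peaks per Mb of territory. The rate of 3.27 over all chromosomes counts peaks with a repeat name, so it is not the like value for this one. Leaving out Veph1 and Shox2, a choice made after seeing the data, gave a median distance of 88.2 kb and 6.26 OPC peaks per Mb. An iOL peak was near 3, 35 and 62 OPC peaks with windows of 10, 100 and 250 kb. Territories cut to the first and last OPC peak held 18 iOL peaks, and 19 when widened by 50 kb. The other settings moved values by less than their counting interval or by less than 1.5 times, and the overlap count was 0 under each definition. With 1 library per stage, unknown depth and IgG of iOL only, background in OPC was not measured, and whether other libraries would give the same genes was not tested.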
